A study of Danio rerio with 12 samples.

Results

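The comparison described here set miR-126 MO-2 against miR-126 MO-1, a pair of morpholino oligonucleotides made against the same microRNA, in 8 of the 12 arrays of a zebrafish series. The 8 arrays were chosen by their labels, 4 for each oligonucleotide, and were compared as 4 same-numbered pairs; the 4 control arrays took no part. Every embryo of both groups carried the flk1:GFP transgene, in which a promoter of the VEGF receptor gene kdrl marks endothelium with GFP, and had received 4 ng of its morpholino as a fertilized egg of 1 cell. GFP-positive cells were sorted at 48 hours after fertilization, and their amplified RNA was hybridized to one-colour Affymetrix zebrafish arrays. The labels give no genotype beyond the transgene, no sequence of either oligonucleotide and no number of embryos per sort.

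MicroRNAs are short RNAs that lower the output of messenger RNAs with matching sites, and they are cut from a longer primary transcript through a hairpin precursor. A morpholino is a synthetic antisense oligonucleotide that cells do not degrade, and one that covers the hairpin region can stop its processing. miR-126 is made by endothelial cells and is known for limiting inhibitors of VEGF signalling, among them spred1. Oligonucleotides of different sequence against one target are used because they share the intended target and differ in unintended ones, so the contrast between them addresses differences that depend on the oligonucleotide. How far each lowered miR-126 was not analysed here, and unequal lowering cannot be told apart from other differences.

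Same-numbered arrays deviated together, although the labels do not say what a shared replicate number stands for. The median log2 signal of the 8 arrays lay between 6.80 and 6.86, and correlations between arrays across 15502 probe sets ran from 0.944 to 0.984. After each group was centred on its mean, the 4 same-numbered pairs correlated at 0.371, 0.232, 0.475 and 0.535 for numbers 1 to 4, and the 12 other combinations of an MO-1 with an MO-2 array at -0.443 to 0.0978. Centring makes the deviations of a group sum to 0. Positive same-numbered values therefore push the other combinations below 0, and the contrast between them is exaggerated. Of the variation among the 8 arrays, summed over probe sets, the replicate number held 66.5% on 3 degrees of freedom, the oligonucleotide 5.81% on 1, and the remainder 27.7% on 3. Their shares of the degrees of freedom were 42.9%, 14.3% and 42.9%. The share of the oligonucleotide was below that of its degree of freedom. These shares describe probe sets, which are not independent replicates.

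No gene passed the test between the oligonucleotides. limma's moderated test, with replicate number entered as the blocking factor, and Benjamini-Hochberg adjustment called 0 of 15502 probe sets (0%), and the lowest adjusted p was 1.00. At an unadjusted p under 0.05 there were 296 probe sets (1.91%), 223 higher with MO-2 (1.44%) and 73 lower (0.471%). If nothing differed, a share of 0.05 of the probe sets would be expected there, and 1.91% lies below it. Without the block the same test called 0, with 57 probe sets at an unadjusted p under 0.05, and the balance turned, to 22 higher and 35 lower. For genes with several probe sets the brightest on average was taken, which left 8793 genes, 194 of them at an unadjusted p under 0.05 (2.21%). Of the 8793, 4129 had a higher mean with MO-2 (47%) and the median difference was -0.01 log2. In pairs 1 to 4 the median over all genes was 0.04, 0.04, -0.02 and -0.09. The mean difference exceeded 2-fold in 5 genes (0.0569%).

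The intervals bound how far the oligonucleotides can differ. The 95% interval of the difference lay wholly within 1 log2 of 0, that is within 2-fold either way, for 98.8% of the 15502 probe sets with the block and for 94.4% without it, and its median half-width was 0.37 log2. A gene that missed the threshold may still differ by an amount inside its interval. The difference profiles of the pairs did not resemble each other. Across probe sets, the MO-2 minus MO-1 profile of a pair correlated with that of another pair at -0.299 to -0.00769 over the 6 combinations, which have no array in common. Only 1 gene was more than 2-fold higher in 3 of the 4 pairs, 0 in all 4, and no gene was more than 2-fold lower in more than 2 pairs. In 4 of 4 pairs 327 genes were higher with MO-2 (3.72%) and 303 were lower (3.45%).

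**Figure D1:**
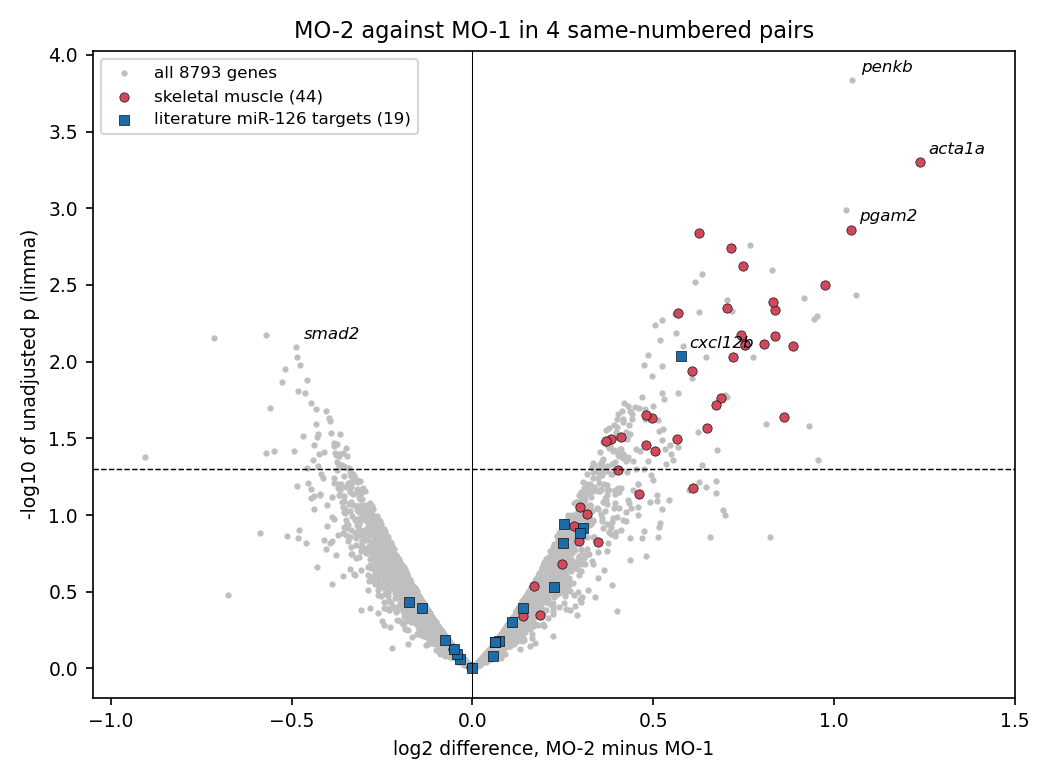
Difference in log2 signal between MO-2 and MO-1 (x axis) against -log10 of limma's unadjusted p (y axis) for 8793 genes in the paired fit; the dashed line marks an unadjusted p of 0.05. Red points are 44 skeletal muscle genes, of which 42 lie right of 0, and blue squares are 19 genes named as miR-126 targets; no gene passed after adjustment.

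Skeletal muscle genes had higher signal with MO-2 than with MO-1, though none passed the test over all probe sets. Of 44 measured members, 42 had a higher mean, with a median difference of 0.59 log2 against -0.01 over all genes. At an unadjusted p under 0.05 there were 30 members higher and 0 lower, beside 1.65% of all genes higher and 0.557% lower, and 20 were higher in 4 of 4 pairs, beside 3.72% of all genes. These 30 made up 20.7% of the 145 genes that were higher at that level. The median difference was 0.83 in pair 1, 0.03 in pair 2, 0.85 in pair 3 and 0.47 in pair 4, so that pair 2 held almost none of it. Without the block, 0 of the 44 members had an unadjusted p under 0.05, beside 0.375% of all genes. With the block, the 95% intervals of 22 of the 44 lay within 1 log2 of 0, beside 8686 of all 8793 genes.

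The member with the largest difference was acta1a. For acta1a, a skeletal alpha actin, log2 signal was 8.21, 10.39, 7.83 and 10.59 in MO-1 replicates 1 to 4 and 9.82, 11.07, 10.02 and 11.06 in the MO-2 replicates. All 4 MO-2 arrays were above their partners, and the groups overlapped because MO-1 replicates 2 and 4 were higher than MO-2 replicates 1 and 3. The difference was 1.24 log2 (SE 0.26), or 2.36-fold (limma, adjusted p = 1.00). Its probes may also read other actin genes of nearly the same sequence.

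The next largest was pgam2. For pgam2, the muscle phosphoglycerate mutase of glycolysis, log2 signal was 6.81, 9.98, 7.15 and 9.56 with MO-1 and 8.40, 10.28, 8.96 and 10.04 with MO-2. The arrays numbered 1 and 3 were low with MO-1 and gained most, by 1.60 and 1.81 log2, while pairs 2 and 4 differed by 0.30 and 0.48. The difference was 1.05 (SE 0.25) for pgam2, 0.98 (SE 0.26) for the fast troponin T gene tnnt3a and 0.89 (SE 0.27) for atp2a1, the calcium pump of the sarcoplasmic reticulum. The parvalbumin gene pvalb3, whose product buffers calcium in fast fibres, differed evenly, by 0.65, 0.75, 0.47 and 0.64 in pairs 1 to 4. The related genes pvalb2 and pvalb4 were at 0.72 (SE 0.18) and 0.75 (SE 0.19).

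The muscle genes myod1, myf5, myog and mylpfa were named for their roles after their values were seen. The difference was 0.38 (SE 0.16) for myod1 and 0.30 (SE 0.16) for myf5, transcription factors that set up muscle precursors, and 0.14 (SE 0.18) for myog, which acts as they differentiate. For mylpfa, a fast myosin light chain, it was 0.56 (SE 0.23), with 1.53 in pair 3 and -0.03 in pair 2, and a second probe set was at 0.62 (SE 0.18). The mean log2 signal of myf5 was low, at 3.60, where the lower quartile of the arrays was 5.45 to 5.61. Outside the list, the genes with the smallest p included actn3b, the alpha-actinin of fast fibres, at 1.03 (SE 0.23) and tmem38a, a cation channel of the sarcoplasmic reticulum, at 0.77 (SE 0.19). The 11 cardiac muscle genes had a median of 0.02, with pair medians of 0.10, 0.80, 0.21 and -0.43.

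**Figure D2:**
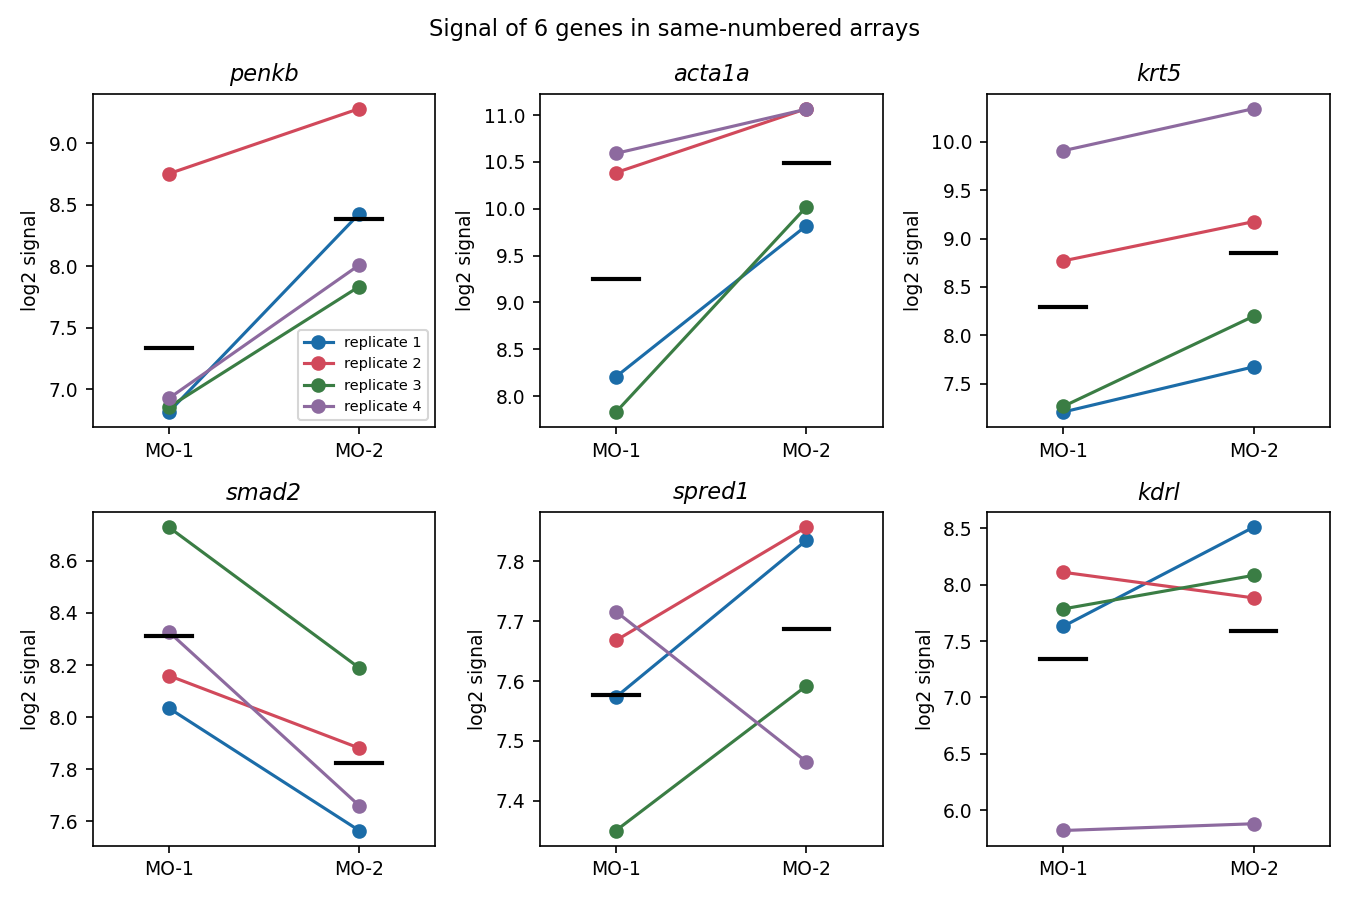
Log2 signal (y axis) of 6 genes in the 4 MO-1 and 4 MO-2 arrays, with lines joining arrays of the same replicate number and black bars at the group means. All 4 lines go up for penkb, acta1a and krt5 and all 4 go down for smad2, whereas those of spred1 and kdrl go both ways.

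Muscle signal varied with the replicate number as well as with the oligonucleotide, and the scores of the groups overlapped. The muscle score, the mean of the 44 genes after each was centred over the 8 arrays, was -1.07, 0.53, -1.16 and 0.59 in MO-1 replicates 1 to 4. With MO-2 it was -0.29, 0.61, -0.25 and 1.06, higher in 4 of 4 pairs but with group means of -0.28 ± 0.97 and 0.28 ± 0.67 (SD, n = 4 each). In both groups the arrays numbered 2 and 4 lay above those numbered 1 and 3. Skeletal muscle is a cell type that a GFP sort is meant to leave out, and in bulk RNA more muscle cells and more muscle RNA per cell cannot be told apart. The part of sort purity in the muscle difference was not tested. The 3' minus 5' signal of the control probe sets for acta1, often read as a measure of RNA integrity, differed between the oligonucleotides by -0.82, 0.19, -0.12 and 0.21 log2 in pairs 1 to 4. That of GAPDH differed by 0.08, -0.46, 0.10 and 0.30, with the other sign in pairs 1 to 3. The genes acta1a and gapdh also differed in signal, by 1.24 and 0.83 log2, and signal level was not separated from integrity. The part of RNA integrity was not tested either.

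**Figure D3:**
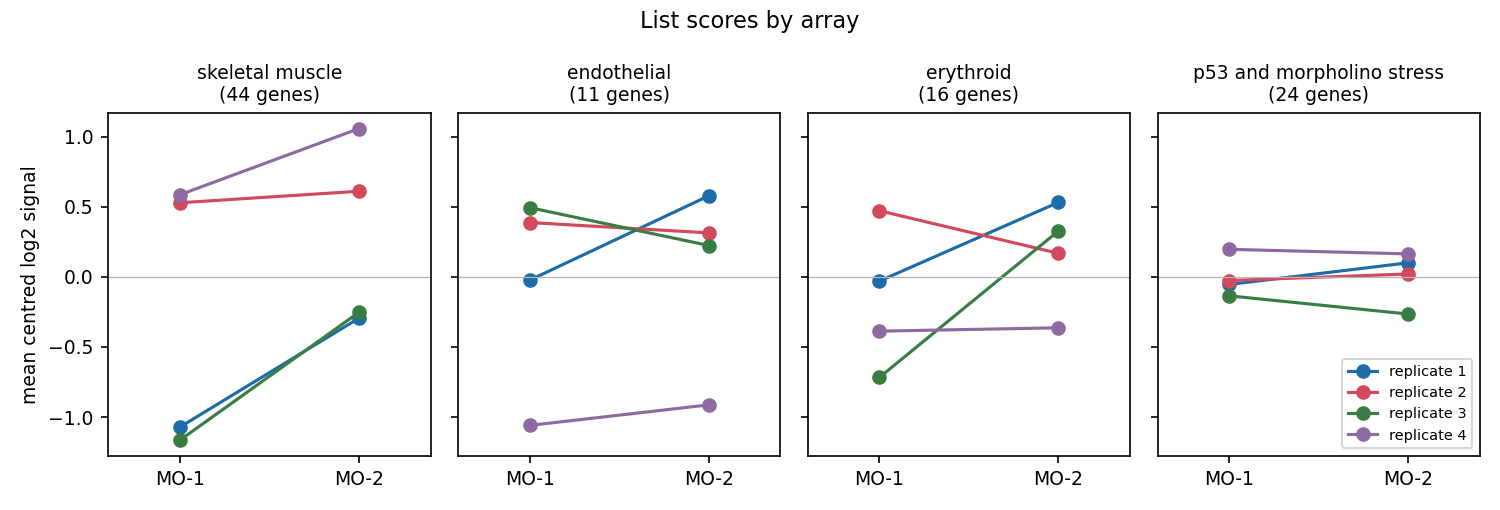
Mean centred log2 signal (y axis) of 4 gene lists in each MO-1 and MO-2 array, with lines joining arrays of the same replicate number. Muscle scores were higher with MO-2 in all 4 pairs, and endothelial scores were lowest in both arrays numbered 4, at -1.06 and -0.91.

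The gene with the smallest p was penkb, which encodes a precursor of opioid peptides. Its log2 signal was 6.82, 8.75, 6.86 and 6.93 in MO-1 replicates 1 to 4 and 8.43, 9.28, 7.84 and 8.01 in the MO-2 replicates. MO-2 was higher in each pair, by 1.61, 0.53, 0.98 and 1.08, and the groups overlapped through MO-1 replicate 2 alone. The difference was 1.05 log2 (SE 0.19), or 2.07-fold, with an interval from 0.64 to 1.46 that was not adjusted for 15502 tests (limma, adjusted p = 1.00).

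Other genes were higher with MO-2 in every pair by smaller amounts. For krt5, a keratin of the embryonic epidermis, log2 signal was 7.21, 8.77, 7.27 and 9.91 with MO-1 and 7.67, 9.17, 8.20 and 10.34 with MO-2. Each pair differed by 0.41 to 0.93, although the arrays of a group spanned more than 2 log2. The gene ppp1r3b, a subunit that brings protein phosphatase 1 to glycogen, differed by 0.44, 0.55, 0.62 and 0.41, with a mean of 0.50 (SE 0.15). The chaperone gene hsp90aa1.1, which muscle fibres use to fold myosin, was at 0.57 (SE 0.16) and is also a member of the muscle list.

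Among genes with the smallest p in the other direction was smad2. For smad2, an effector of TGF-beta and Nodal signalling, log2 signal was 8.04, 8.16, 8.73 and 8.33 with MO-1 and 7.57, 7.88, 8.19 and 7.66 with MO-2. It was lower in 4 of 4 pairs, with a difference of -0.49 (SE 0.15), and the arrays overlapped by MO-2 replicate 3. A second probe set of smad2 was at -0.02 (SE 0.17), so that the probe sets of this gene disagreed. The difference was -0.48 (SE 0.15) for anos1a, which encodes an extracellular matrix protein, and -0.52 (SE 0.17) for chmp4c, a component of the membrane-cutting ESCRT machinery.

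Every MO-2 array lay below every MO-1 array in 27 genes (0.307%), and above in 19 (0.216%). Among the lower ones was sgta, a co-chaperone gene, at 7.36, 7.23, 7.47 and 7.45 with MO-1 and 7.02, 6.89, 7.02 and 7.12 with MO-2. Its pair differences were even, from -0.33 to -0.45, for a mean of -0.37 (SE 0.15). Others of this kind were dcaf15, a substrate receptor of a ubiquitin ligase, at -0.46 (SE 0.16), LOC798191 at -0.48 (SE 0.16), and hspe1, described with the chaperone genes. A second probe set of dcaf15 was at -0.21 (SE 0.16). Arrays of the groups overlapped for si:dkey-88l16.3, si:dkey-247k7.2 and wbp2nl, at -0.57 (SE 0.17), -0.71 (SE 0.22) and -0.24 (SE 0.15). They also overlapped for the phosphatase subunit gene ppp2r2ca, at -0.53 (SE 0.18). In pair 1 si:dkey-247k7.2 was higher with MO-2, by 0.18, and in pair 3 ppp2r2ca was not lower, at 0.008.

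The measured genes among those named in the literature as miR-126 targets differed little between the oligonucleotides. Of 46 listed genes, 19 were matched to a named probe set, and pik3r2, vcam1 and egfl7 were not among them. Of the 19, 12 had a higher mean with MO-2 and the median difference was 0.06 log2. The pair medians were 0.07, 0.00, 0.07 and 0.07. The 95% intervals of all 19 lay within 1 log2 of 0, beside 8686 of all 8793 genes. At an unadjusted p under 0.05 there was 1 member higher and 0 lower, beside 1.65% and 0.557% of all genes, and 3 were higher in 4 of 4 pairs, beside 3.72%. Most of these targets were described in human or mouse cells.

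The inhibitor spred1 is the best known of these targets. Its log2 signal was 7.57, 7.67, 7.35 and 7.72 in MO-1 replicates 1 to 4 and 7.84, 7.86, 7.59 and 7.47 in the MO-2 replicates. MO-2 was higher in pairs 1 to 3, by 0.26, 0.19 and 0.24, and pair 4 went the other way, by -0.25. The difference was 0.11 (SE 0.16) with an interval from -0.24 to 0.46, so a difference of 2-fold lies outside it. The other 3 probe sets of spred1 were at -0.14, 0.23 and -0.18.

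The largest target difference was in cxcl12b, the chemokine gene whose signal guides vessel and cell migration. Log2 signal was 9.29, 8.47, 7.90 and 7.02 with MO-1 and 9.97, 8.57, 9.02 and 7.43 with MO-2. The pairs differed by 0.68, 0.10, 1.11 and 0.41, and the groups overlapped over most of their range. The mean was 0.58 (SE 0.18; limma, adjusted p = 1.00). Its receptor gene cxcr4a was at 0.25 (SE 0.15), with pair differences of 0.19, 0.35, 0.14 and 0.33. The growth factor gene vegfaa was at 0.30 (SE 0.18), of which pair 4 gave 0.91, and igfbp2a, a binding protein of insulin-like growth factors, was at 0.31 (SE 0.18).

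**Figure D4:**
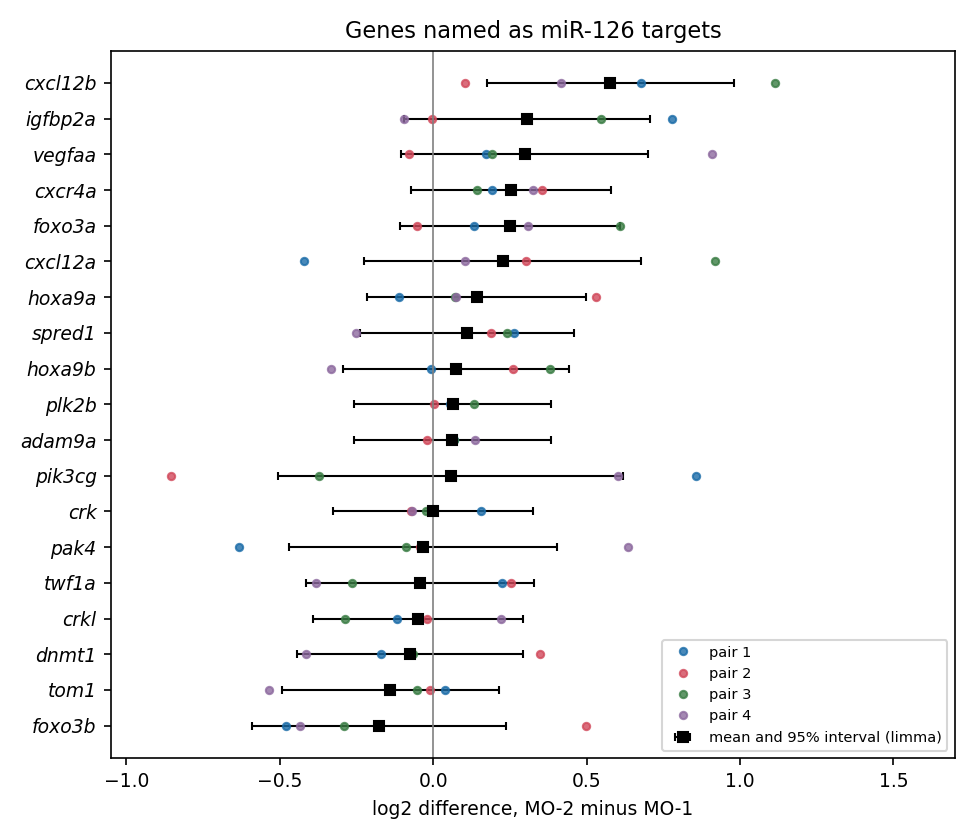
Difference in log2 signal between MO-2 and MO-1 (x axis) for 19 genes named as miR-126 targets. Squares and bars are the mean and limma's 95% interval, coloured points the 4 same-numbered pairs; only the interval of cxcl12b, from 0.17 to 0.98, leaves out 0.

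Pathways in which miR-126 is known to act showed differences of the same small size. The 30 VEGF and ERK signalling genes had a median difference of 0.04 with 18 higher, and the members ran from -0.26 for the immediate early gene egr1 to 0.30 for vegfaa. The ERK feedback inhibitor spry4, named after its values were seen, was at 0.12 (SE 0.16). The 19 measured genes of PI3K, AKT and angiopoietin signalling, of 35 listed and without pik3r2, had a median of 0.06 with 12 higher. The forkhead factor genes foxo3a and foxo3b, which AKT inactivates, were at 0.25 (SE 0.16) and -0.18 (SE 0.19). The intervals of all 30 and all 19 lay within 1 log2 of 0, beside 8686 of all 8793 genes. In either list 0 members had an unadjusted p under 0.05, beside 1.65% of all genes higher and 0.557% lower. At those shares, lists of this size would hold few such genes.

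Notch genes had a median difference of 0.06 with 16 of 26 higher. The Notch effector hey2, which takes part in arterial identity, was at 8.07, 7.47, 7.10 and 6.75 with MO-1 and at 8.14, 8.01, 8.12 and 7.03 with MO-2. It was higher in 4 of 4 pairs, by 0.07 to 1.01, with a mean of 0.48 (SE 0.18). The hairy-type repressor her4.2, also a gene of neural progenitors, was at 0.49 (SE 0.26), of which pair 3 gave 1.56. Its mean log2 signal was low, at 5.29, where the lower quartile of the arrays was 5.45 to 5.61. In MO-1 replicate 3 it was at 3.65. Flow-responsive genes had a median of 0.03, with 6 of 10 higher, and their named members klf9 and ptgs2a were at 0.16 (SE 0.21) and -0.13 (SE 0.18).

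The microRNA machinery list, which holds processing enzymes beside Argonaute and other factors, had 5 measured genes with a median of -0.11 and 2 higher. The gene dicer1, whose product cuts the hairpin precursor, was at 7.28, 7.36, 6.94 and 7.36 with MO-1 and at 7.64, 7.38, 7.46 and 7.67 with MO-2. Every MO-2 array was above every MO-1 array, by 0.02 at the nearest same-numbered pair, and the difference was 0.30 (SE 0.16; limma, adjusted p = 1.00). For drosha, whose product cuts the primary transcript, it was -0.20 (SE 0.17), with a second probe set at 0.09 (SE 0.20).

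The sorted cells were checked against endothelial genes, for which no detection calls were available. For kdrl, log2 signal was 7.63, 8.11, 7.78 and 5.82 with MO-1 and 8.51, 7.88, 8.08 and 5.88 with MO-2. Both arrays numbered 4 were low, and the groups overlapped throughout. The difference was 0.25 (SE 0.19), with an interval from -0.17 to 0.67. Of 11 endothelial genes, 8 had a higher mean with MO-2 and the median difference was 0.13, but the pair medians were 0.58, -0.05, -0.43 and 0.06, so that pairs 1 and 3 went opposite ways.

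The difference was 0.30 (SE 0.18) for plvapb, a protein of endothelial fenestrae, and 0.23 (SE 0.15) for the transcription factor gene erg, which was higher in 4 of 4 pairs by 0.02 to 0.43. It was 0.16 (SE 0.21) for the related gene fli1 and 0.13 (SE 0.15) for the receptor gene tie1, the last of them named after its values were seen. A second probe set of fli1 was at 0.12 (SE 0.18), with pair differences of -0.18, 0.67, 0.05 and -0.05 against 0.96, -0.11, -0.46 and 0.26. The 3 endothelial genes with a lower mean reached -0.11 at the lowest. The endothelial score was -0.02, 0.39, 0.49 and -1.06 in MO-1 replicates 1 to 4 and 0.58, 0.31, 0.22 and -0.91 with MO-2. The higher muscle signal of MO-2 in pair 3 thus came with a lower endothelial score, and that in pair 1 with a higher one.

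Arterial genes had positive medians in all 4 pairs, and venous and lymphatic genes in pairs 2 and 3. Of 8 arterial genes 7 were higher with MO-2, with a median of 0.11 and pair medians of 0.06, 0.13, 0.14 and 0.17; 4 of the 8 are also Notch genes. Of 7 venous and lymphatic genes 6 were higher, with a median of 0.07 and pair medians of -0.09, 0.42, 0.33 and -0.17. The scavenger receptor gene mrc1a was at 0.33 (SE 0.25) and the endocytic adaptor gene dab2 at 0.29 (SE 0.18). No member of either list other than hey2 had an unadjusted p under 0.05, beside 1.65% of all genes higher and 0.557% lower.

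Erythroid genes had higher means with MO-2, with the difference in pairs 1 and 3. Of 16 measured genes 13 were higher, with a median difference of 0.30 log2, and the pair medians were 0.59, -0.15, 1.02 and 0.00. At an unadjusted p under 0.05 there were 2 members higher and 0 lower, beside 1.65% and 0.557% of all genes, and 0 were higher in 4 of 4 pairs, beside 3.72%. The embryonic beta globin gene hbbe3 was at 12.11, 11.96, 7.92 and 7.14 with MO-1 and at 12.68, 11.48, 11.51 and 6.74 with MO-2. Its signal in MO-1 replicate 3 lay 3.59 log2 below its MO-2 partner, while pairs 2 and 4 went the other way, by -0.47 and -0.40. The mean was 0.82 (SE 0.52), and it was -0.10 without the pair numbered 3. Intervals of 9 of the 16 erythroid genes lay within 1 log2 of 0, beside 8686 of all 8793 genes.

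The related gene hbbe2 was also higher with MO-2 in pairs 1 and 3. For hbbe2 log2 signal was 9.30, 9.36, 7.59 and 9.24 with MO-1 and 10.61, 9.22, 9.68 and 9.24 with MO-2, a difference of 0.81 (SE 0.32). The alpha globin gene hbae3 was at 0.70 (SE 0.39) and the red cell carbonic anhydrase gene cahz at 0.67 (SE 0.34). Globin genes are near copies of each other, and their probe sets may share transcripts. The regulator gata1a, named after its values were seen, was at -0.08 (SE 0.18). Myeloid genes had a median of 0.01 with 9 of 16 higher and pair medians of 0.49, -0.23, -0.37 and 0.14. The granulocyte peroxidase gene mpx was at 0.36 (SE 0.18), with 3 other probe sets at -0.10 (SE 0.175), 0.53 (SE 0.15) and 0.05 (SE 0.17), and srgn, a proteoglycan of secretory granules, was at 0.29 (SE 0.22).

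Stress genes were compared because some morpholinos are known to raise p53 and innate responses in zebrafish embryos apart from their target. The 24 genes of the p53 and morpholino stress list had a median difference of 0.02 with 14 higher. Of these genes 0 had an unadjusted p under 0.05, beside 1.65% of all genes higher and 0.557% lower. A list of this size would hold few such genes at those shares. Their intervals all lay within 1 log2 of 0, beside 8686 of all 8793 genes. The members with the largest differences were sesn3, a stress-induced sestrin, at 0.39 (SE 0.18) and the death receptor gene fas at -0.27 (SE 0.17), with a second probe set at -0.35 (SE 0.15). The p53 target and inhibitor mdm2, named after its values were seen, was at 0.08 (SE 0.21), with pair differences of 0.64, 0.51, -0.50 and -0.32.

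Innate response genes behaved in the same way. Of 18 measured members 10 were higher, with a median of 0.04. Again 0 had an unadjusted p under 0.05, beside 1.65% of all genes higher and 0.557% lower. The tetraspanin gene cd9b was at 0.34 (SE 0.16) and the cytokine signalling inhibitor socs1a at -0.31 (SE 0.18). The interferon-induced gene isg15, named after its values were seen, was at 0.14 (SE 0.17). Its mean log2 signal was low, at 4.22, where the lower quartile of the arrays was 5.45 to 5.61.

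The heat shock and early stress list, which holds chaperones beside early response genes such as egr1, had a median difference of -0.04 with 11 of 32 members higher. At an unadjusted p under 0.05 there were 2 members higher and 2 lower, beside 1.65% and 0.557% of all genes, and every MO-2 array lay below every MO-1 array in 2 members, beside 0.307% of all genes. For hspe1, the co-chaperonin of mitochondria, log2 signal was 11.47, 11.13, 11.69 and 11.20 with MO-1 and 10.94, 11.11, 10.80 and 10.91 with MO-2. The groups did not overlap, by a gap of 0.02 log2, and the difference was -0.43 (SE 0.17; limma, adjusted p = 1.00). Its partner hspd1 and the chaperone of the endoplasmic reticulum hspa5, both named after their values were seen, were at -0.26 (SE 0.17) and -0.26 (SE 0.15). The largest difference of the list went the other way, in hsp90aa1.1 at 0.57 (SE 0.16), higher in 4 of 4 pairs. In 4 of 4 pairs 3 members were higher and 4 lower, beside 3.72% and 3.45% of all genes.

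Most lists for other cell types had pair medians on both sides of 0, as the plot of gene lists by pair shows. Mesenchyme and cartilage genes had a median of 0.09 with 21 of 30 higher, and pair medians of 0.25, -0.12, 0.43 and 0.00. Intervals of 24 of the 30 lay within 1 log2 of 0, beside 8686 of all 8793 genes. The cartilage and notochord collagen gene col9a1b was at 6.82, 11.65, 10.80 and 11.22 with MO-1 and at 9.95, 11.26, 11.44 and 11.67 with MO-2. MO-1 replicate 1 stood far below the rest and gave a pair difference of 3.13. The genes tbxta, the Brachyury factor of the notochord, col9a3 and col2a1a had the next largest gains of pair 1 along with it, at 2.69, 2.44 and 2.27. Of these, tbxta and col9a3 were named after their values were seen. The gain of tbxta started from a low log2 signal of 3.75 in MO-1 replicate 1. The mean difference was 0.66 (SE 0.41) for tbxta, 0.93 (SE 0.36) for col9a3 and 0.67 (SE 0.32) for col2a1a.

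Pancreatic genes changed sides between pairs. The somatostatin gene sst2 was at 9.35, 6.77, 8.38 and 9.45 with MO-1 and at 6.35, 9.57, 6.64 and 8.69 with MO-2. It had the largest loss of pair 1, at -3.001, and the largest gain of pair 2, at 2.79, for a mean of -0.68 (SE 0.66). The glucagon gene gcga, named after its values were seen, followed it in pair 2, at 2.43, and had a mean of 0.16 (SE 0.43). The trypsin gene prss1 had the largest gain of pair 4, at 1.65, with a mean of 0.51 (SE 0.27). Over 20 pancreatic genes the median was 0.04.

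Neural genes had a median difference of -0.09 with 14 of 45 higher, and pair medians of -0.12, -0.36, 0.40 and -0.15. The gene gad1b, an enzyme that makes the transmitter GABA, was at 7.47, 8.01, 7.46 and 8.59 with MO-1 and at 7.32, 7.45, 6.66 and 8.25 with MO-2. It was lower in 4 of 4 pairs, by -0.16 to -0.80, with a mean of -0.46 (SE 0.16). No other neural gene had an unadjusted p under 0.05, beside 0.557% of all genes lower and 1.65% higher. In pair 3, where 32 of 45 neural genes were higher, gad1b went against its list.

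Among 37 epidermal genes 18 were higher and the median was -0.01, and members apart from krt5 stood on both sides. The keratin gene krt1-19e was at 0.94 (SE 0.27), with a second probe set at 0.70 (SE 0.27), and the fin fold gene and1 at 0.69 (SE 0.38). The basal epidermal factor tp63, named after its values were seen, was at -0.37 (SE 0.16), with a second probe set at -0.04 (SE 0.19). For liver, gut and yolk, 20 of 40 genes were higher around a median of 0.00, with pair medians of -0.09, 0.26, 0.19 and -0.42. The fibrinogen gene fgg was at 0.53 (SE 0.22) and the retinol carrier gene rbp4 at 0.51 (SE 0.26). Cilia and kidney genes had a median of 0.12 with 15 of 21 higher, led by the transporter genes slc12a3 at 0.48 (SE 0.18) and atp1a1a.4 at 0.45 (SE 0.21). Their pair medians were 0.47, 0.26, 0.11 and -0.33. Eye and lens genes had a median of -0.07 with 6 of 16 higher, and pair medians of 0.15, 0.07, 0.02 and -0.44. Pigment cell genes had a median of -0.08 with 1 of 5 higher, and pair medians of 0.32, -0.03, 0.02 and -0.48.

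**Figure D5:**
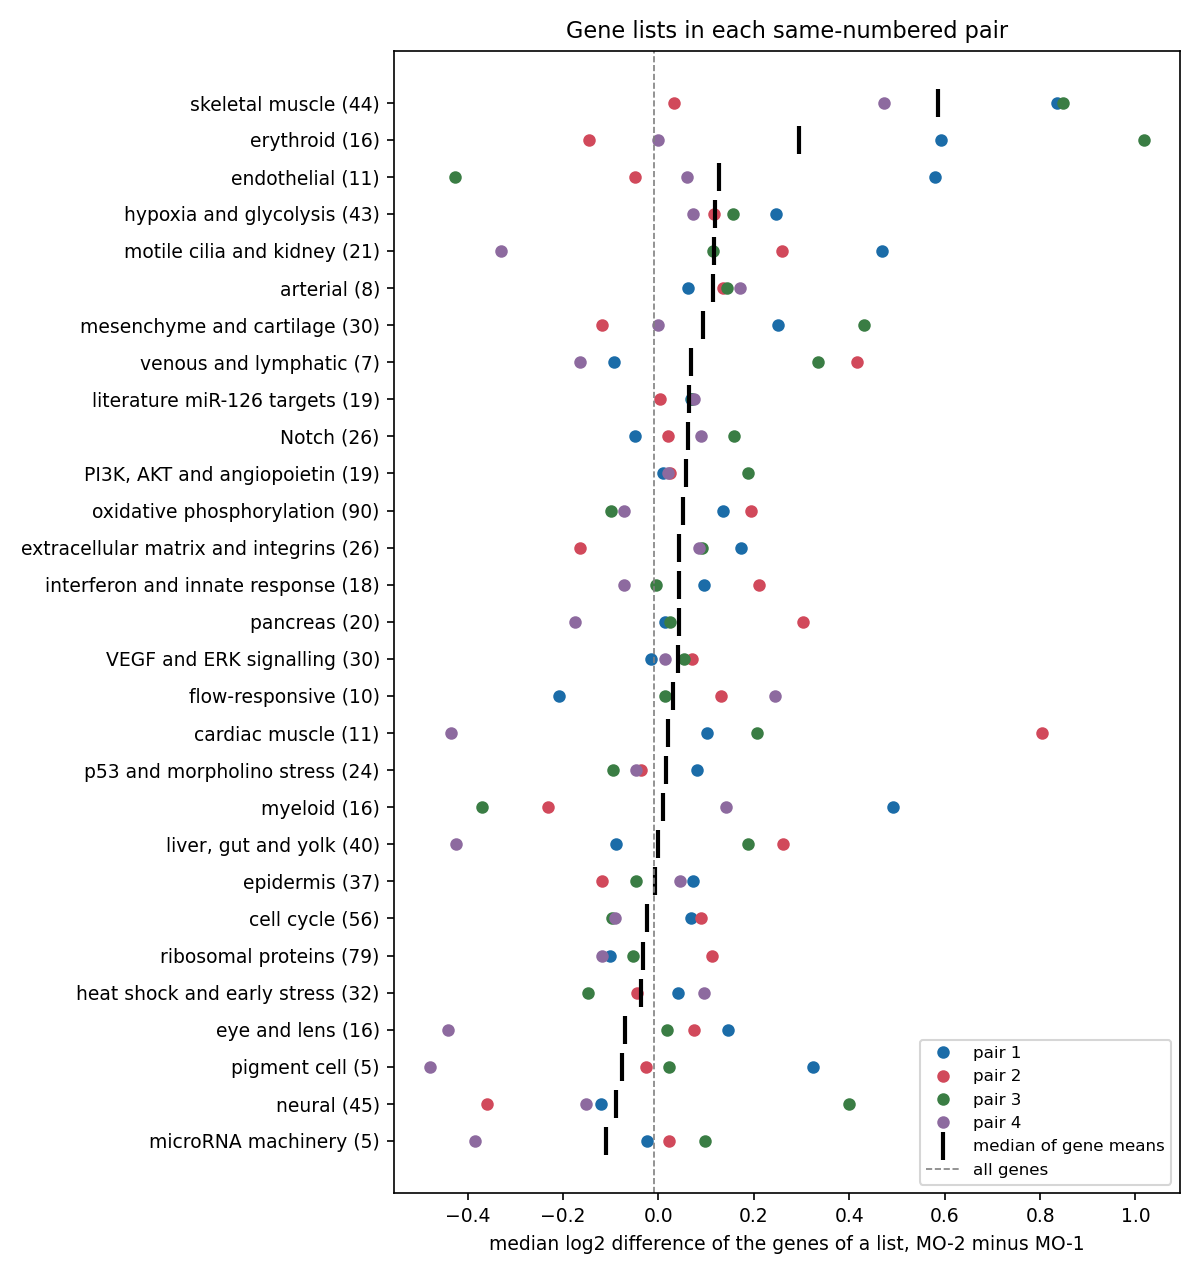
Median difference in log2 signal between MO-2 and MO-1 (x axis) of 29 gene lists (y axis, with the number of measured genes) in each of the 4 same-numbered pairs (points) and over the gene means (black bars); the dashed line is the median of all genes. The muscle bar lies at 0.59, and for most lists the points fall on both sides of 0.

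Genes of energy metabolism had slightly higher means with MO-2. Of 43 hypoxia and glycolysis genes 34 were higher, with a median of 0.12 and positive pair medians of 0.25, 0.12, 0.16 and 0.07, and 10 were higher in 4 of 4 pairs, beside 3.72% of all genes. The members with the largest differences were pgam2 and aldoab, at 0.92 (SE 0.25), a muscle-type aldolase; gapdh, named after its values were seen, was at 0.83 (SE 0.21). The 2 genes pgam2 and eno3 are also in the muscle list. Muscle scores were higher in 4 of 4 pairs as well, with muscle pair medians of 0.83, 0.03, 0.85 and 0.47. The part of muscle in the glycolysis difference was not tested. Oxidative phosphorylation genes had a median of 0.05 with 66 of 90 higher and pair medians of 0.13, 0.19, -0.10 and -0.07. Over all genes the pair medians were 0.04, 0.04, -0.02 and -0.09. The subunit gene cox4i2 of cytochrome c oxidase, known from mammals for its link to oxygen supply, was higher in 4 of 4 pairs, by 0.16 to 0.79, with a mean of 0.42 (SE 0.16), and ndufa4b was at 0.52 (SE 0.20).

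Growth and matrix genes were near the median of all genes. Of 79 genes for ribosomal proteins 19 were higher and the median was -0.03. All 79 intervals lay within 1 log2 of 0, beside 8686 of all 8793 genes. The genes rplp0 and rps19bp1, the latter not itself a ribosomal protein, were at -0.16 (SE 0.15) and -0.16 (SE 0.16). Cell cycle genes had a median of -0.02 with 21 of 56 higher, with the cytokinesis gene ect2 at 0.36 (SE 0.16) and the replication factor gene rfc5 at -0.26 (SE 0.21). Matrix and integrin genes had a median of 0.04 with 18 of 26 higher. The matrix glycoprotein gene thbs1b was at 0.41 (SE 0.18) and the collagen-modifying enzyme gene plod1a at 0.38 (SE 0.18).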

How the data were processed

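RNA of sorted flk1:GFP cells was measured on one-colour arrays, 4 of MO-1 and 4 of MO-2, numbered 1 to 4 in the labels. What the authors deposited is a log2 value per probe set and array, for which the submitters' processing notes name RMA without a version; that the logs are to base 2 was read from their range. The 115 control probe sets were left out and the other 15502 tested with no filter. Names came from the platform's annotation: 10795 probe sets had 1 symbol, 135 several and 4572 none; symbols were updated through Entrez numbers against the GRCz12tu RefSeq table, which changed 1.

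Each probe set was fitted in R 4.3.3 by limma 3.58.1 (functions lmFit and eBayes, replicate number as a block, two-sided, Benjamini-Hochberg over 15502 probe sets, threshold 0.05) and summarised in Python 3.11.15 with pandas 2.3.3. SE and 95% intervals are limma's. The fit had 3 residual degrees of freedom and 11.1 in all with those borrowed across probe sets. The number of arrays limits the precision; no detection calls were available here. The block was used because the arrays were compared as same-numbered pairs and the labels give both groups the same numbers. Deviations of same-numbered arrays correlated at 0.232 to 0.535, with 8 of 8 arrays closest to their own number. The fit was tested on simulated data.

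The arrays, gene lists and tests were chosen with earlier results of these data known, so 29 lists are described by counts and medians and not tested. Named genes were spred1 and kdrl; the 8 with the smallest p in each direction, since none passed; up to 4 members of each list with the largest difference; and in each direction the 6 whose smallest pair difference was largest. Others are said to be named after their values were seen. Alternatives were no block, a mean log2 signal of at least 6, quantile normalization again, centring on array medians, an intensity trend in eBayes, the mean of all probe sets of a gene (for the lists), and leaving out each replicate number in turn.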

Additional observations from a re-analysis of the deposited data

Results flagged for a closer look

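In 18 of 250 sets of 4 arrays of an oligonucleotide, taken over the named genes and the list scores, 1 array stood far from the other 3. Chance gives about 1 in 20 such sets where the sets are independent and not picked by their values. Many of these genes were picked by their values and all sets share the same arrays. The count was therefore not tested against that rate. All values are log2 signals.

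Both arrays numbered 4 were low for several vascular genes, and MO-2 replicate 4 stood apart from its group. It was at 7.12 for plvapb, where the other 3 MO-2 arrays lay between 9.32 and 9.68, at 7.51 for erg (9.04 to 9.33) and at 7.03 for hey2 (8.01 to 8.14). MO-1 replicate 4 was at 6.42 for plvapb, 7.48 for erg and 6.75 for hey2, also the lowest of its group. The arterial score of MO-2 replicate 4 was -0.38 against 0.16 to 0.25. That of MO-1 replicate 4 was -0.45, again the lowest of its group. MO-1 replicate 4 was at 6.72 for dab2 (7.82 to 7.95), and MO-2 replicate 4, at 6.43, was the lowest with MO-2. In MO-2 replicate 4, rpe65a, a gene of the retinal pigment epithelium, was at 7.23 (5.71 to 5.87) and ppp2r2ca at 6.73 (5.88 to 5.996). For both genes MO-1 replicate 4 was likewise the highest of its group, at 8.02 and 7.22.

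MO-1 replicate 3 was at 7.59 for hbbe2, where the other MO-1 arrays lay between 9.24 and 9.36, and at 6.27 for gata1a (5.27 to 5.39). It was at 5.97 for vegfaa (6.76 to 6.91), 8.05 for dcaf15 (7.50 to 7.58) and 10.88 for hspd1 (10.40 to 10.41). MO-2 replicate 3 was at 6.46 for rfc5 (7.04 to 7.15).

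MO-1 replicate 2 was at 8.75 for penkb, where the other MO-1 arrays lay between 6.82 and 6.93, and its matrix and integrin score was 0.18 (-0.12 to -0.08). The gene wbp2nl stood apart in both arrays numbered 2, at 7.81 with MO-1 (7.43 to 7.49) and 7.58 with MO-2 (7.20 to 7.20). MO-2 replicate 2 was at 8.32 for cmlc1 (6.73 to 6.93).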

How the results depend on the processing

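Under each of 9 alternative fits limma called 0 probe sets, with 57 to 469 at an unadjusted p under 0.05; the lowest adjusted p, 0.187, was that of actn3b without replicate 2. Without the replicate block there were 57, against 296 with it. The share of intervals within 1 log2 of 0 was 94.4% without the replicate block, 98.6% at a mean log2 signal of at least 6, 99.0% with an intensity trend, and 96.5% to 98.4% on leaving out 1 replicate number. Leaving out 1 number, muscle genes at an unadjusted p under 0.05 numbered 20, 32, 20 and 22 of 44 without replicates 1 to 4. The shares over all genes in the same fits were 2.21%, 3.49%, 2.34% and 2.82%. The median of VEGF and ERK genes then ranged from -0.030 to 0.063, negative only without replicate 2, and that of the microRNA machinery from -0.18 to 0.11, positive without replicates 1 and 4. Dropping the block, the signal filter and the intensity trend leave the mean difference of a gene unchanged, so they cannot turn its direction. Leaving out 1 number cannot turn a gene that moved the same way in all 4 pairs, and some named genes were picked for that. Of 96 named genes, 82 kept their direction under every alternative, a count partly fixed by how they were chosen. The other 14 turned on leaving out 1 replicate number, and the ranges over the 4 such fits follow. Without replicate 1 these were fli1 (-0.10 to 0.37), ptgs2a (-0.22 to 0.057), sst2 (-1.83 to 0.098), tbxta (-0.020 to 1.17) and mdm2 (-0.10 to 0.28). Without replicate 2 they were cmlc1 (-0.061 to 0.88), gcga (-0.60 to 0.55) and mdm2 (at -0.059). Without replicate 3 they were rfc5 (-0.38 to 0.033), hbbe3 (-0.10 to 1.25), mrc1a (-0.039 to 0.55) and gata1a (-0.26 to 0.046), and without replicate 4 klf9 (-0.12 to 0.32), pmelb (-0.30 to 0.15) and myog (-0.048 to 0.27). The cause was not tested. Arrays of 4 and 4 limit the precision, and which probe sets stood above background was not analysed here.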
